A study of Mus musculus with 10 samples.

Results

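The miR-188 to miR-532 cluster is a run of 5 miRNA hairpins inside Clcn5, a gene of the X chromosome. The 6 mature miRNAs described here are mmu-miR-188-5p, mmu-miR-362-3p, mmu-miR-500-3p, mmu-miR-501-3p, mmu-miR-532-5p and mmu-miR-532-3p, written below without the prefix for mouse, out of 1139 mouse miRNAs in the count tables. They were selected by name, as products of 1 locus, and from an earlier look at how their levels rose and fell together over the 10 libraries of this study. Their correlations and their differences between genotypes are therefore given as descriptions, with no test of their own. The tables also hold 4 further products of the same hairpins, miR-188-3p, miR-362-5p, miR-500-5p and miR-501-5p, which are described beside them.

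Small RNA was sequenced from hearts of male C57Bl6N mice, harvested 1 week after transverse aortic constriction, which narrows the aorta and makes the left ventricle pump against a higher pressure. The control group held 5 libraries labelled floxed control, whose hearts carry a Cited4 gene flanked by recombination sites, and the other group held 5 libraries labelled CITED4 knockout. Both groups had the operation, so there is no unoperated group. The sources used here give neither the promoter that drives the recombinase nor the age of the mice, and they do not state that each library is a separate animal, so errors describe the spread between libraries, which may be technical. Cited4 messenger RNA is not part of a miRNA table, and the genotypes are those of the labels.

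A miRNA is cut from a hairpin in a longer transcript, first by Drosha in the nucleus and then by Dicer in the cytoplasm. Either arm of the hairpin, named 5p or 3p, can be loaded into an Argonaute protein, where its seed pairs with target messenger RNAs and lowers their output. Hairpins of an intronic cluster are usually transcribed with their host gene. Clcn5 encodes ClC-5, a chloride and proton exchanger of endosomes best known from the proximal tubule of the kidney. Of the cluster, miR-501 has been described in activated muscle progenitor cells, miR-188 in the choice of bone marrow stromal cells between bone and fat, and miR-532-3p and miR-188-3p in the death and autophagy of heart muscle cells.

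All 5 hairpins lie on the minus strand of chromosome X within 10815 bases (chrX:7237683-7248497, GRCm38.p6). In the direction of transcription Mir532 comes first (chrX:7248402-7248497), followed after 345 bases by Mir188 (chrX:7247989-7248056). A gap of 5942 bases leads to Mir362 (chrX:7241982-7242046), Mir501 follows 630 bases later (chrX:7241243-7241351), and Mir500 stands last after a further 3468 bases (chrX:7237683-7237774). GENCODE release M21 has 5 Clcn5 transcripts, of which 3 run across the cluster, and in these the 5 hairpins lie within the same intron (chrX:7213011-7316658) and overlap no exon. The other 2 transcripts do not span the hairpins.

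The mature sequences are shown because 3 of the members, miR-500-3p, miR-501-3p and miR-362-3p, resemble each other. RefSeq (GRCm38.p6) gave a mature sequence for 9 of the 10 products and 5 of the 6 members, printed 5′ to 3′ with the seed, bases 2 to 8, in capitals; miR-532-5p is named only.
miR-500-3p: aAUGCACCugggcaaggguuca
miR-501-3p: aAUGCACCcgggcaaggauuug
miR-362-3p: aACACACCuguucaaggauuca
miR-188-5p: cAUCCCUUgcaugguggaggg
miR-532-3p: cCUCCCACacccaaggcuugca
miR-500-3p and miR-501-3p share their seed and 18 of 22 bases, and differ by U9C, G18A, C21U and A22G, counted from the 5′ end with the base of miR-500-3p first. miR-362-3p matched miR-500-3p at 17 of 22 positions and miR-501-3p at 15, with another seed. No other pair of the 5 members had more than 8 identical positions. The sources used here do not say how reads that match several miRNAs were assigned, so an exchange of reads between miR-500-3p and miR-501-3p was not tested.

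The opposite arms are shown because the Mir362, Mir500 and Mir501 hairpins are alike there too.
miR-362-5p: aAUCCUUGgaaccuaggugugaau
miR-500-5p: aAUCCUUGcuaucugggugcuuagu
miR-501-5p: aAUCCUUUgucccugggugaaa
miR-188-3p: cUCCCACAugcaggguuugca
miR-362-5p and miR-500-5p have the same seed, and miR-501-5p differs from it in the last base. Both arms of a hairpin are seen in the Mir362 and Mir501 precursors, here with the mature arms in capitals.
Mir362: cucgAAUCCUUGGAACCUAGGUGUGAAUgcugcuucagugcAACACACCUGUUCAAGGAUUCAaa
Mir501: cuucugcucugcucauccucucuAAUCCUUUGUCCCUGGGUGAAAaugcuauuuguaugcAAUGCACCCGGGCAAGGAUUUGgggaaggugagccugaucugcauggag
Among all other mature miRNAs of the RefSeq table, 2 carry a seed of the 9 sequenced products. One is miR-329-3p, a miRNA of the imprinted Dlk1-Dio3 locus with the seed of miR-362-3p (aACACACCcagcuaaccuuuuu), and the other, miR-7061-3p, shares the seed of miR-188-5p and is not among the rows used here.

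The libraries held between 7526091 and 18369483 counts and 678 to 785 miRNAs with at least 1 count. Levels are given as CPM, read counts per 1e6 counts of a library total scaled by its TMM factor, which corrects for the composition of the library and ran from 0.790 to 1.22. All 6 members passed edgeR's filterByExpr filter on low counts, as did 457 of the 1139 miRNAs. Heart muscle markers were high in every library: the summed level of miR-1a-3p, miR-133a-3p, miR-208a-3p and miR-499-5p ran from 242432 to 503939 CPM in controls and from 220406 to 386502 CPM in knockouts. The 9 miRNAs listed for epithelium and other organs summed to 573 to 840 CPM in controls and 451 to 795 CPM in knockouts. Of these, 8 had counts in every library, led by miR-9-5p at 202 to 504 CPM, miR-194-5p at 129 to 214, miR-192-5p at 51.9 to 164 and miR-122-5p at 29.0 to 108, and the neuronal miR-124-3p had none.

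**Figure D1:**
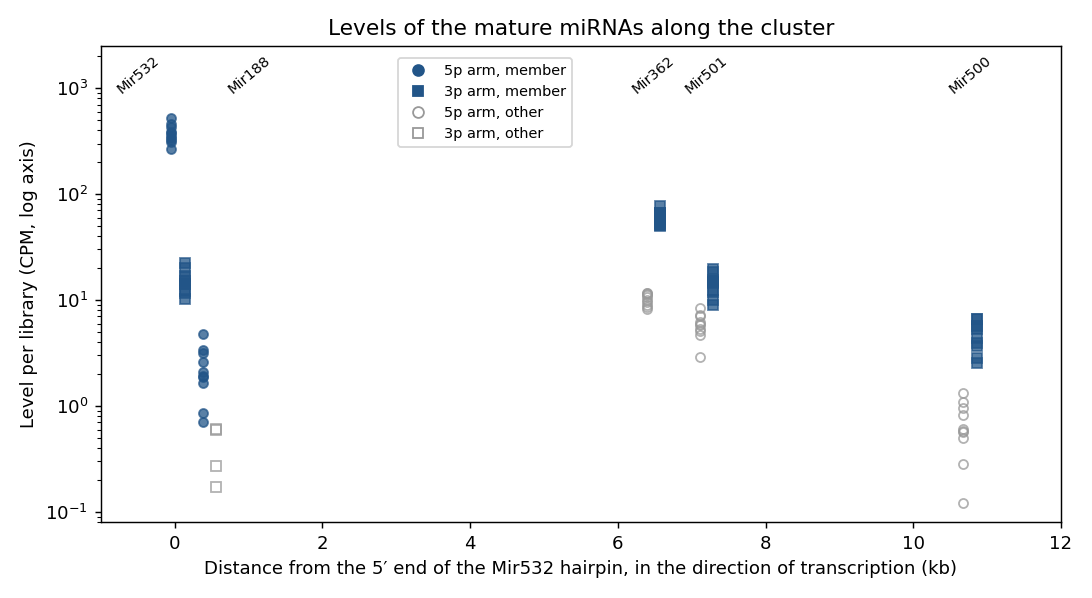
Level of each mature miRNA of the cluster against the distance of its hairpin from the 5′ end of Mir532, in kb along the direction of transcription. Each point is 1 library on a log axis of CPM, circles are 5p arms, squares are 3p arms, filled symbols are the 6 members and open symbols the other arms; libraries with no count are not drawn. miR-532-5p stands at 268 to 525 CPM, above all other products, and miR-188-5p from the neighbouring hairpin stands below 5 CPM.

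The products of this single intron differed widely in level. miR-532-5p had a mean level of 339 ± 60.6 CPM over the controls and 414 ± 75.1 CPM over the knockouts (each mean below is likewise given ± SD, with n = 5 in both groups), which placed it 85th of 1139 miRNAs by mean level. miR-362-3p followed at 61.2 ± 6.38 and 59.8 ± 11.8 CPM, rank 159. miR-501-3p at 13.7 ± 3.49 and 14.4 ± 3.53 CPM and miR-532-3p at 13.3 ± 2.52 and 17.1 ± 4.16 CPM could not be placed apart beyond their spread. miR-500-3p was at 4.41 ± 1.18 and 5.08 ± 1.81 CPM. miR-188-5p was the rarest member, at 1.64 ± 0.82 and 2.98 ± 1.28 CPM, rank 390. Mature miRNAs are of nearly equal length, but ligation in library preparation also depends on sequence, and its part in this order was not tested.

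miR-532-5p alone took 75.2% ± 3.68 of the cluster's counts in controls and 77.9% ± 1.57 in knockouts, and miR-362-3p took 13.9% ± 2.45 and 11.3% ± 1.22. The whole cluster of 10 products made up 0.0437% ± 0.011 of all counts in control libraries and 0.0567% ± 0.017 in knockout libraries. The highest library totals of the cluster were those of knockout replicate 1, at 662 CPM, knockout replicate 2, at 598 CPM, and control replicate 1, at 552 CPM. The other 7 libraries lay between 385 and 482 CPM.

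The arms of each hairpin were unequally abundant, and which arm led differed between hairpins. Mir532 gave 43540 counts of its 5p arm and 1725 of its 3p arm over all libraries, a ratio of 25.2, and Mir188 gave 273 and 18 counts. Mir362, Mir501 and Mir500 led with the 3p arm, with 6860 against 1195, 1641 against 662 and 528 against 85 counts. Deeper libraries weigh more in these sums, whereas a ratio taken within a library does not depend on scaling. Within libraries, the ratio of miR-532-5p to miR-532-3p was 26.4 ± 7.91 in controls and 24.8 ± 3.63 in knockouts, with the lowest value, 16.0, in control replicate 3 and the highest, 37.1, in control replicate 1.

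The ratio of miR-362-3p to miR-362-5p was 6.11, 7.18, 7.78, 5.83 and 6.24 in control replicates 1 to 5. In the knockout it was 6.89 and 6.68 in replicates 1 and 2, and 4.69, 4.49 and 4.38 in replicates 3, 4 and 5. So 3 knockout libraries lay below all controls and 2 lay within the control range, and the group means were 6.63 ± 0.82 and 5.43 ± 1.25. The ratio of miR-501-3p to miR-501-5p was 2.40 ± 0.50 in controls and 2.70 ± 1.45 in knockouts, where replicate 5 had 5.26 and the other 4 had 1.74 to 2.31.

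The single comparison of the design sets CITED4 knockout against control hearts under pressure overload. Of the 6 members, 5 had a positive log2 fold change and miR-362-3p was near 0, with a median of 0.24; over all 457 miRNAs tested, 53.2% were positive, with a median of 0.03. Scaled by library totals only, 6 of 6 members were positive with a median of 0.38, beside 64.8% of all miRNAs and a median of 0.14. The members were chosen with these libraries known, so nothing is read from that count. No member passed edgeR's quasi-likelihood test at a threshold of 0.05 after adjustment over all 457 miRNAs, where 0 miRNAs, or 0%, were called, and 29 (6.35%) had an unadjusted p under 0.05. DESeq2 and limma-voom also called 0. In the edgeR fit with genotype only, all 6 intervals of the members contained 0. The groups overlapped for each member, while 0.656% of all tested miRNAs (3 of 457) had groups that did not overlap.

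**Figure D2:**
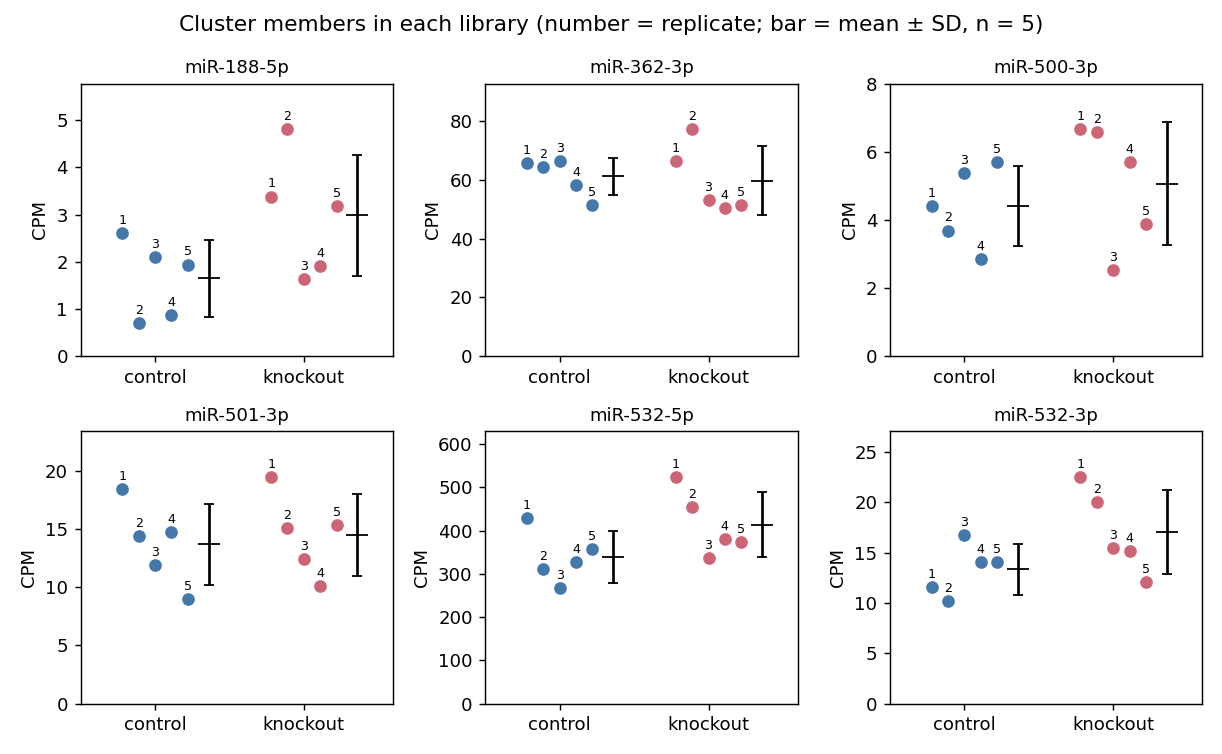
CPM of each member in each library, 1 panel per miRNA with an axis that starts at 0; the number beside a point is the replicate number, and the bar is the mean ± SD of 5 libraries. Knockout replicate 1 is among the highest 3 libraries in all 6 panels and knockout replicate 2 in 5, and the groups overlap in all 6.

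miR-532-5p, the leading product, was at 430, 311, 268, 327 and 357 CPM in control replicates 1 to 5 and at 525, 454, 336, 382 and 374 CPM in knockout replicates 1 to 5. The 2 highest libraries were knockouts, the lowest 3 were controls, and control replicate 1 stood above 3 of the knockouts. The log2 fold change was 0.29 ± 0.16 (SE), 1.22-fold, with a 95% interval from 0.96-fold to 1.56-fold.

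Its partner arm miR-532-3p was at 11.6, 10.2, 16.7, 14.1 and 14.1 CPM in controls and at 22.5, 20.0, 15.4, 15.2 and 12.1 CPM in knockouts. Knockout replicates 1 and 2 exceeded all controls, and the other 3 knockouts lay within the control range. The log2 fold change was 0.36 ± 0.21, 1.28-fold, with an interval from 0.94-fold to 1.75-fold. The arms of Mir532 thus had similar fold changes, although control replicate 1 was the highest control for the 5p arm and the second lowest for the 3p arm.

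miR-188-5p, from the hairpin next to Mir532, had the largest fold change of the members and the fewest counts. It was at 2.60, 0.70, 2.11, 0.86 and 1.94 CPM in controls and at 3.38, 4.81, 1.64, 1.90 and 3.18 CPM in knockouts. Knockout replicates 1, 2 and 5 stood above all controls, and replicates 3 and 4 stood within their range. The log2 fold change was 0.85 ± 0.42, 1.80-fold, with an interval from 0.96-fold to 3.38-fold. Counts per library ran from 7 to 58. For the library with 7 counts, control replicate 4, the exact 95% Poisson interval was 2.81 to 14.4 counts, or 0.35 to 1.78 CPM, which covers counting error only.

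miR-362-3p was at 65.7, 64.4, 66.5, 58.3 and 51.4 CPM in controls and at 66.5, 77.4, 53.4, 50.3 and 51.4 CPM in knockouts. Knockout replicate 2 was the highest of all libraries and knockout replicates 3, 4 and 5 were among the lowest 4. Its log2 fold change was -0.04 ± 0.16, with an interval from 0.77-fold to 1.24-fold, and its sign turned to positive when libraries were scaled by their totals only (0.08) or when no filter on low counts was used (0.003). The other arm of the hairpin, miR-362-5p, was at 9.30 ± 1.05 CPM in controls against 11.1 ± 0.84 in knockouts, and its log2 fold change was 0.26 ± 0.16. In that arm 4 of the 5 knockouts stood above all controls, and knockout replicate 1, at 9.65 CPM, did not.

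miR-501-3p was at 18.4, 14.4, 11.9, 14.7 and 8.97 CPM in controls and at 19.5, 15.0, 12.4, 10.1 and 15.3 CPM in knockouts. The 2 groups covered nearly the same range, and the log2 fold change was 0.08 ± 0.23, with an interval from 0.75-fold to 1.48-fold. miR-500-3p, which shares its seed, was at 4.42, 3.69, 5.38, 2.84 and 5.70 CPM in controls and at 6.68, 6.58, 2.53, 5.70 and 3.89 CPM in knockouts. The highest 2 libraries and the lowest library were knockouts, and the log2 fold change was 0.20 ± 0.31. Their relative abundance was 3.41 ± 1.48 counts of miR-501-3p per count of miR-500-3p in controls and 3.16 ± 1.26 in knockouts.

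**Figure D3:**
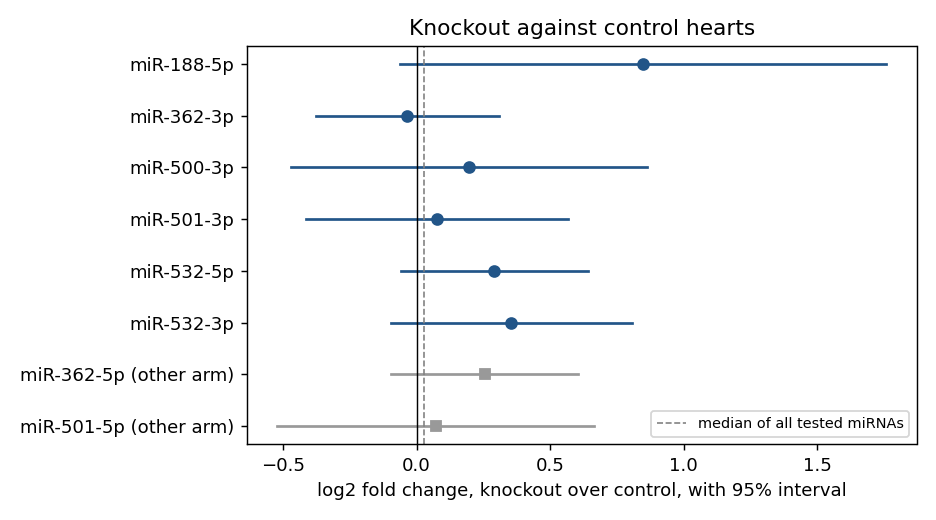
Log2 fold change of knockout over control with its 95% interval from the fit over all 457 miRNAs, for the 6 members (circles) and the 2 tested other arms (squares); the dashed line is the median of all tested miRNAs. All 8 intervals contain 0, and that of miR-188-5p, from -0.06 to 1.76, is the widest.

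Of the other 4 products, miR-362-5p and miR-501-5p passed the low-count filter, and 0 of these 2 passed the test in either direction; both had a positive log2 fold change, 0.26 and 0.07. miR-501-5p was at 5.70 ± 0.99 and 6.04 ± 2.04 CPM, with the lowest and the highest library both among the knockouts (2.91 and 8.41 CPM). miR-500-5p had 1 to 24 counts per library and was at 0.55 ± 0.30 and 0.81 ± 0.41 CPM. miR-188-3p had 2, 5, 6 and 5 counts in control replicates 1 and 5 and knockout replicates 2 and 5 and none in the other 6 libraries, where a count of 0 allows a level of up to 0.189 to 0.370 CPM (3 counts, a one-sided limit). miR-329-3p, which shares the seed of miR-362-3p but not its locus, was at 1.82 ± 0.87 and 2.05 ± 0.84 CPM, far below miR-362-3p.

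Among the 35 other tested miRNAs whose hairpins all lie on chromosome X, 15 had a positive and 20 a negative log2 fold change, with a median of -0.06, and 0 were called in edgeR's test. Over the 6 members the median was 0.24. The members were chosen for their values, and this difference was not tested.

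The members' spread between libraries was larger than counting error. miR-532-5p had a coefficient of variation of 17.9% over the controls, where counting alone gives 1.81%, and miR-362-3p had 10.4% against 4.22%. miR-501-3p had 25.5% against 9.22%. For miR-188-5p it was 50.1% against 29.0%, and for miR-500-3p 26.8% against 16.1%. miR-362-5p varied by about as much as counting gives, with 11.3% against 10.8% in controls and 7.56% against 8.45% in knockouts.

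Across the 10 libraries the members were loosely correlated. Over the 15 pairs of members the mean Pearson correlation of log2 CPM was 0.41, the median 0.47 and the range -0.04 to 0.67, and 14 of 15 were above 0. Spearman's rho had a mean of 0.45. Over all 104196 pairs of tested miRNAs the median was -0.01, with 49.5% above 0, and 16.3% of these pairs were above 0.5 against 6 of the 15 member pairs. The highest pairs were miR-188-5p with miR-532-5p (r = 0.67, rho = 0.73) and with miR-500-3p (r = 0.64, rho = 0.71). The 2 arms of Mir532 correlated at r = 0.47, and the seed sharers miR-500-3p and miR-501-3p at r = -0.04 (rho = 0.10).

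**Figure D4:**
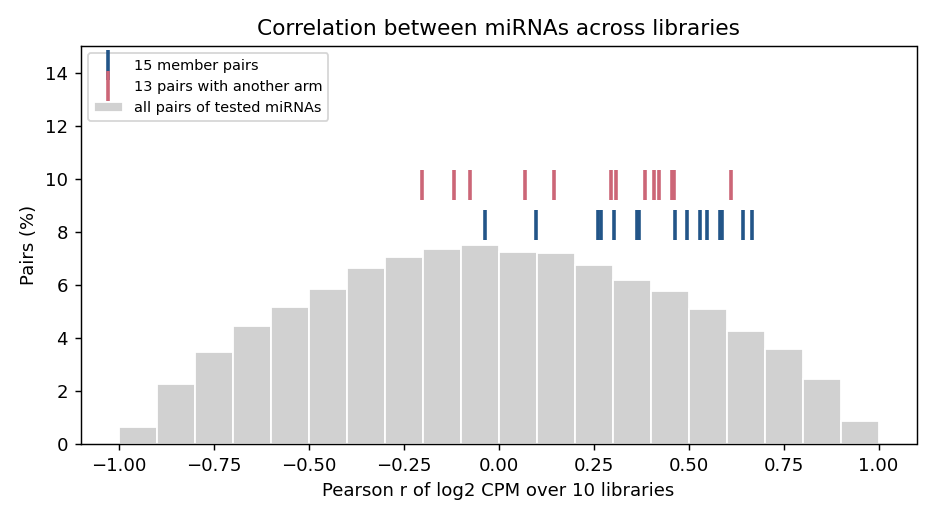
Pearson correlation of log2 CPM over 10 libraries; grey bars give the percentage of all pairs of tested miRNAs in bins of 0.1, blue ticks the 15 pairs of members and red ticks the 13 pairs that include miR-362-5p or miR-501-5p. The member pairs spread from -0.04 to 0.67, inside the range of the grey bars.

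The 13 pairs that include another arm ranged from -0.20 to 0.61. miR-362-5p correlated with miR-362-3p of its own hairpin at r = -0.07 (rho = -0.16), and miR-501-5p with miR-501-3p at r = 0.29 (rho = 0.47). miR-501-5p came closest to miR-362-3p, at r = 0.61 (rho = 0.66).

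The shared rise was largest in 2 libraries. The mean of the 6 standardised log2 levels was 1.28 SD above the average in knockout replicate 1 and 1.18 in knockout replicate 2, against 0.33 in control replicate 1 and values from -0.67 to -0.07 in the other 7. All 6 members were above their own mean in both of these knockout libraries. Without them the mean correlation of the 15 pairs was -0.01, with 7 of 15 above 0, beside a median of -0.01 over all pairs in the same 8 libraries. These 2 libraries were left out because the members are highest there. When each pair was instead taken without the 2 libraries farthest from the median of its first member, the mean was 0.39, the range -0.13 to 0.93, and 14 of 15 were above 0. Every pair then still held knockout replicate 1 or knockout replicate 2 or both. That mean therefore does not describe the members apart from these 2 libraries. In the fit without knockout replicates 1 and 2, 3 of 6 members had a positive log2 fold change, and the median was -0.0005: miR-188-5p had 0.46, miR-532-5p 0.12, miR-532-3p 0.10, miR-501-3p -0.10, miR-500-3p -0.13 and miR-362-3p -0.23. Taken as deviations from the genotype mean over all 10 libraries, the 15 pairs had a mean correlation of 0.40.

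**Figure D5:**
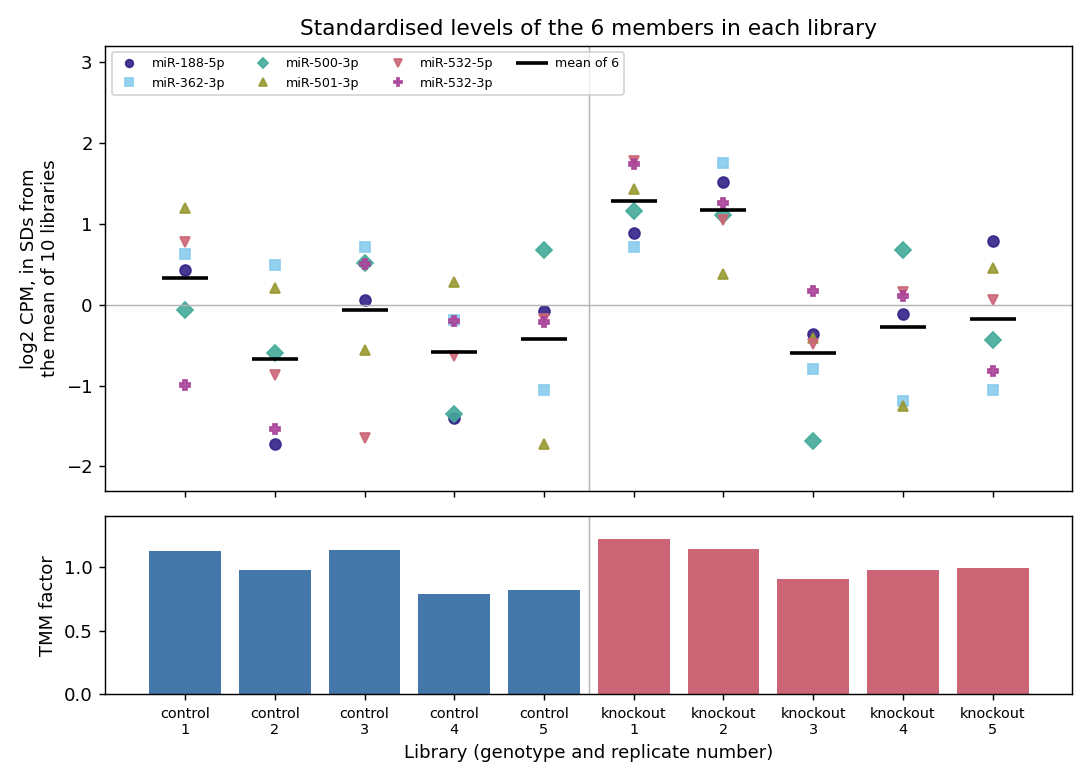
Upper panel, standardised log2 CPM of the 6 members in each library, in SDs from the mean of all 10 libraries, with a black bar at their mean; lower panel, the TMM factor of the library. All 6 members lie above 0 in knockout replicates 1 and 2, and the members scatter on both sides of their mean in the other libraries.

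Other measures of the libraries moved with the mean of the members. It correlated with the log2 TMM factor at r = 0.79 (rho = 0.88, 10 libraries), at r = 0.71 without the 2 libraries whose factors were farthest from the median, and at r = 0.74 without knockout replicates 1 and 2. Knockout replicate 1 had the highest factor, 1.22, and knockout replicate 2 the second highest, 1.143. Control replicates 3 and 1 followed closely at 1.136 and 1.129, with the mean of the members at -0.07 and 0.33 SD. The mean of the members correlated with the summed level of the 4 heart muscle markers at r = -0.80 (rho = -0.77). This was r = -0.85 without the 2 libraries farthest in that sum, and r = -0.72 without knockout replicates 1 and 2. miR-1a-3p averaged 351241 of the sum's 356467 CPM in controls and 299919 of 303903 in knockouts, and alone had r = -0.80. miR-133a-3p had r = -0.63, miR-499-5p -0.59 and miR-208a-3p -0.38, so 4 of 4 of these markers had a negative correlation. miR-1a-3p is a large part of each library total, which the TMM factor scales, so this sum and the factor may not be separate measures. With the log2 library total the mean of the members correlated at r = -0.39 (rho = -0.64). A miRNA's level in a whole heart cannot tell fewer cells of a type from less RNA per cell, and the part of these measures in the members' values was not tested.

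Among the markers of other cell types, the summed level of 5 leukocyte miRNAs correlated with the mean of the members at r = 0.60 (rho = 0.45), through miR-142a-3p (r = 0.86) and miR-223-3p (r = 0.85), while the other 3 were negative. Without knockout replicates 1 and 2 the sum was at r = -0.04. Their sum ran from 1562 to 1593 CPM in controls and from 1386 to 1762 CPM in knockouts. The sum of the 3 erythroid miRNAs correlated at r = -0.72 (rho = -0.54), or -0.32 without those 2 libraries. It ran from 13759 to 33016 CPM in controls and from 11532 to 25240 CPM in knockouts. miR-486a-5p averaged 23545 of the sum's 24266 CPM in controls and 16713 of 17210 in knockouts, with r = -0.72. So the sum says little about miR-144-3p and miR-144-5p, which had r = -0.64 each. miR-486 is known from muscle as well as blood, so this sum and that of the heart muscle markers may not be separate measures. The fourth marker of that list, miR-451a, is not analysed here. The 3 fibroblast miRNAs were at r = 0.44, the 2 endothelial at -0.48, the 2 smooth muscle at 0.22 and the 9 epithelial or other organ miRNAs at -0.75. Without knockout replicates 1 and 2 these were 0.27, -0.37, -0.09 and -0.64. In the last list miR-192-5p had r = -0.73, miR-194-5p -0.59 and miR-9-5p -0.54. There miR-141-3p had -0.38, miR-200c-3p -0.18 and miR-200a-3p -0.05, while 2 were positive, miR-200b-3p (0.37) and miR-122-5p (0.14). The part of these cell types in the members' values was not tested.

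A minority of the miRNAs outside the cluster followed the mean of the members closely. Over the 449 others the median correlation with it was 0.04, 76 were above the lowest member and 14 were above 0.8. The 6 most alike, picked as the extremes of these 449, were miR-154-3p (r = 0.90), miR-490-5p (0.89), miR-1843b-5p (0.88), miR-21a-3p (0.87), miR-511-3p (0.86) and miR-142a-3p (0.86), while the members themselves, which are part of that mean, correlated with it at 0.57 to 0.81. Without the 2 libraries farthest from the median of the respective miRNA, r was 0.55 for miR-154-3p, 0.84 for miR-490-5p and 0.88 for miR-21a-3p. Without knockout replicates 1 and 2, the 6 ran from 0.55 to 0.85 and the members from -0.02 to 0.75, beside a median of 0.02 over the 449. The 3 most opposed were miR-181a-5p (-0.93), miR-322-5p (-0.89) and miR-181d-5p (-0.88). Set against the mean of the other 5 members, miR-532-5p correlated at r = 0.69 and 6.64% of the 452 miRNAs compared had a higher value. For miR-188-5p these were 0.70 and 7.08%, and for miR-532-3p 0.57 and 20.1%. They were 0.55 and 19.7% for miR-500-3p, 0.51 and 18.6% for miR-362-3p, and 0.38 and 27.7% for miR-501-3p. Without knockout replicates 1 and 2, the correlation with the other 5 was 0.44 for miR-188-5p, 0.09 for miR-532-5p and 0.04 for miR-500-3p. It was -0.09 for miR-362-3p, -0.12 for miR-501-3p and -0.34 for miR-532-3p.

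The most upstream annotated start of Clcn5 lies 70.9 kb before Mir532. The 250 bases before it (chrX:7319359-7319608, minus strand, GRCm38.p6, RefSeq) are shown as the sequence next to that start, with the motif matches in capitals. Which start gives the transcript of the cluster in the heart was not tested.
Clcn5 upstream: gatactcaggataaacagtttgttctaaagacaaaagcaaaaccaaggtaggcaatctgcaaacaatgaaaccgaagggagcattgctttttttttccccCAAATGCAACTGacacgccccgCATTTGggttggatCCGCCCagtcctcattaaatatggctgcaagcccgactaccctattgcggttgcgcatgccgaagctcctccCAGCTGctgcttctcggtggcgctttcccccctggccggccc
Both strands were searched. The E-box CANNTG matched at 4 places, 150, 144, 128 and 42 bases before the start, and 66.2% of 32851 promoter windows of the same length hold at least 1. The GC box GGGCGG matched once, on the other strand 114 bases before the start, as in 32.7% of windows. The TATA box TATAAA, the CCAAT box CCAAT, the site AGATAA, the hypoxia response core ACGTG and the CArG box had no match in this window. A match is a description of these letters and not a binding site.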

How the data were processed

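Small RNA libraries of control and knockout hearts, 5 libraries in each group, were analysed. The authors deposited raw read counts per mature miRNA and a second table of linear signal, which equals those counts divided by 1 factor per library (largest relative deviation 5.1e-15). Per the submitters' processing notes the build is GRCm38, and STAR, Bowtie, DESeq2 and cutadapt 1.10 were used, in roles not stated there. Columns were matched to libraries by title. Any 2 libraries of a group differed by more than sampling noise (smallest chi-square divided by its degrees of freedom 66.3, control replicates 4 and 5). Some pairs were much closer than others. Knockout replicates 1 and 2 were the closest knockout pair, at 134, and the other knockout pairs had 169 to 1418. Control replicates 1 and 2 had 142, and the remaining control pairs 605 to 1230. Library totals differ and also enter this ratio.

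The members and lists were chosen with earlier results of these data known. All 457 miRNAs kept by filterByExpr were fitted with edgeR 4.0.16 (R 4.3.3; TMM, quasi-likelihood test, genotype only, Benjamini-Hochberg adjustment); standard errors are the log2 fold change divided by the square root of F. DESeq2 1.42.0 and limma-voom (limma 3.58.1) were alternatives. Log2 CPM used a prior count of 2. The text names all products of the cluster, miRNAs that share a seed with one, and the 6 most and 3 most opposed to the members' mean by Pearson correlation. Correlations carry no p because they chose the members. On simulated data the fit called 77 of 98 miRNAs changed 2-fold, 93 of 93 changed 4-fold and 5 of 255 left unchanged. Changes smaller than 2-fold were not simulated. Depth is the range of totals given in the text; intervals cover counting error or spread between libraries only.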

Additional observations from a re-analysis of the deposited data

Results flagged for a closer look

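In each group of 5 libraries the gap between the most extreme library and its nearest neighbour was set against the group's range for the 10 products of the cluster. Of 20 groups, 2 exceeded the 95% critical value of 0.71. Chance gives about 1 in 20 for independent groups of normally distributed values. The products share their libraries and miR-188-3p had few counts, so nothing is read from this number. miR-188-3p was at 0.606 CPM in control replicate 5, from 5 counts, while the remaining controls had 0 to 0.173 CPM (gap of 0.714 of the range). miR-362-5p was at 9.65 CPM in knockout replicate 1 while the remaining knockouts had 11.2 to 11.7 CPM (gap of 0.745). That library had the highest level of the cluster as a whole.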

How the results depend on the processing

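Each of the 19 alternative fits called 0 miRNAs. The median log2 fold change of the members, 0.24, was 0.19 to 0.38 under the alternatives that kept all libraries. Leaving out 1 library gave 0.16 to 0.39, and leaving out knockout replicates 1 and 2 together, chosen after seeing the data, gave -0.0005. miR-501-3p turned negative without control replicate 5 or knockout replicate 1 (-0.02 each), and miR-362-3p turned positive in 7 fits, namely with totals only, with no filter, and when controls 1 or 3, or knockouts 3, 4 or 5, were dropped singly. Scaling by library totals only moved the median of all miRNAs from 0.03 to 0.14 and the positive share from 53.2% to 64.8%; the mean correlation of the 15 member pairs was then 0.70, beside a mean of 0.20 over all pairs, against 0.41 and 0.0002 with TMM. Without knockout replicates 1 and 2 it was -0.014, and it was 0.27 to 0.48 with 1 library left out. The 29 miRNAs at an unadjusted p under 0.05 became 14 with totals only, 102 of 1105 without a filter, 45 of 1105 with DESeq2 and, with a library left out, 84, 16, 10 and 6 (controls 1, 3, 4 and 5) and 8, 13, 65 and 18 (knockouts 1, 2, 4 and 5). The replicate block gave 72, with 0 called and a member median of 0.23. The labels do not say what a replicate number marks, so the numbers were not taken as pairs. Same-number libraries correlated at 0.45, 0.38 and 0.40 for replicates 1, 2 and 4, and at -0.08 and -0.12 for replicates 3 and 5. Of the 10 libraries, 4 correlated best with their own number. Whether the numbers mark pairs was not tested. With the stricter filter (5 CPM in 5 libraries) miR-188-5p and miR-500-3p were not tested. In all these cases the cause was not tested. Depth limits miR-188-5p, miR-500-3p and both arms below 1 CPM most.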
